A study of Mus musculus with 16 samples.

Results

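BMAL1 binding was described at 8 genes of bile acid, steroid and drug metabolism in mouse liver. They were Por, Cyp7a1, Cyp8b1, Nr0b2, Cyp17a1, Cyp2a4, Cyp2b9 and Cyp2u1. An interval was taken when the authors' consensus table gave it 1 of these names as its nearest gene, at any distance. This found 9 of the 7043 intervals in that table, and 17 of the 9986 peaks in the lists behind it. Only genes with at least 1 interval could be chosen, so the genes were selected on peak calls in these libraries, and it is no finding that each of them had a peak.

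BMAL1 was mapped by chromatin immunoprecipitation and sequencing (ChIP-seq) in liver of male and female C57bl6 mice, 8 to 16 weeks old. The groups were misaligned and control mice, each taken at ZT12 and at ZT0 of a cycle of 12 h light and 12 h dark, where ZT0 is lights on. A diet with 42% of its calories from fat was fed to both treatments, so the controls were not on plain chow. Each of the 8 groups had 1 BMAL1 library, pooled from 3 to 4 mice, and 1 library made with non-specific IgG, which was not analysed here. The labels do not give the misalignment schedule. With 1 library per group, no difference could be set against replicate error, and no test was made. Peaks show binding and not expression, so the tissue could not be checked by marker levels.

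BMAL1 pairs with CLOCK, and the pair binds a short DNA element called the E-box and drives the daily rhythm of many liver genes. Cytochrome P450 enzymes oxidise drugs, steroids, fatty acids and cholesterol, and those of the endoplasmic reticulum take their electrons from the protein made by Por. Cyp7a1 and Cyp8b1 act in the conversion of cholesterol to bile acids, and the protein made by Nr0b2, also called SHP, represses both genes when bile acids are plentiful.

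The lists differed widely in length, which bears on every count. Male misaligned ZT12 stood apart with 5542 peaks, against 290 in male control ZT12, and male misaligned ZT0 had 1864 against 373 in male control ZT0. In females, misaligned ZT12 had 221 peaks against 141 in control ZT12, and misaligned ZT0 had 1330 against 225 in control ZT0. Read depth is unknown. The smallest local background of each list, a stand-in for depth and fragment length, was between 4.25 and 6.16 fragments. The part of list length in the results was not tested. The lowest -log10 q of each list was between 1.30 and 1.42. The smallest fragment count at any summit of a list, which need not belong to the same peak, was between 14 and 22. The count needed for a call depends on the local background, so a site without a call may still have been bound.

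Promoter window sequences of Nr0b2 and Por are shown because peaks covered both in several libraries and they differed in the E-box. Each line gives the 250 bases before a transcription start, from RefSeq promoter windows of GRCm38.p6, on the plus strand. They lie at chr4:133553126-133553375 for Nr0b2 and chr5:135688895-135689144 for Por. The start used for Por lies inside the RefSeq gene, which begins at chr5:135670040, and is not its 5′ end. Capitals mark the E-box CACGTG, and the sequence of Por holds none.
Nr0b2: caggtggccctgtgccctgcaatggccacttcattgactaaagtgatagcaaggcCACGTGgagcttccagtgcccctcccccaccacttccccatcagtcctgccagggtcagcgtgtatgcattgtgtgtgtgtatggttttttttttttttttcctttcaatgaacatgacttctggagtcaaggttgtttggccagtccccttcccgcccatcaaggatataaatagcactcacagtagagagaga
Por: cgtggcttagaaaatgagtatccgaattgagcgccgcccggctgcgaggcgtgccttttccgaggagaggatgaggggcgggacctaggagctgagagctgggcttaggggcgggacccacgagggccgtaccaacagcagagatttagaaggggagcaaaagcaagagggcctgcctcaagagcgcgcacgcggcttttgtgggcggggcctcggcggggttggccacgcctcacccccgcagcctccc

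Across the 9 intervals, male misaligned ZT12 had 8 called and male control ZT12 had 2, where 78.7% and 4.06% of all intervals were called. Male misaligned ZT0 had 3 called and male control ZT0 had none, beside 26.4% and 5.21% of all intervals. Female misaligned ZT12 had 1 called and female control ZT12 had none, beside 3.08% and 1.96%. Female misaligned ZT0 had 3 called and female control ZT0 had none, beside 18.8% and 3.17%. Because the calls chose the genes, nothing is read from these counts. All 8 genes had a peak in at least 1 misaligned library, and 2 of them, Por and Nr0b2, in at least 1 control library. Within 10 kb of the TSS, 10.9% and 1.31% of all protein-coding genes did. Without male misaligned ZT12, 3 of the 8 genes had a peak in a misaligned library, namely Por, Nr0b2 and Cyp17a1, beside 5.19% of all protein-coding genes. For the same reason, no difference between treatments is read from these gene counts.

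**Figure D1:**
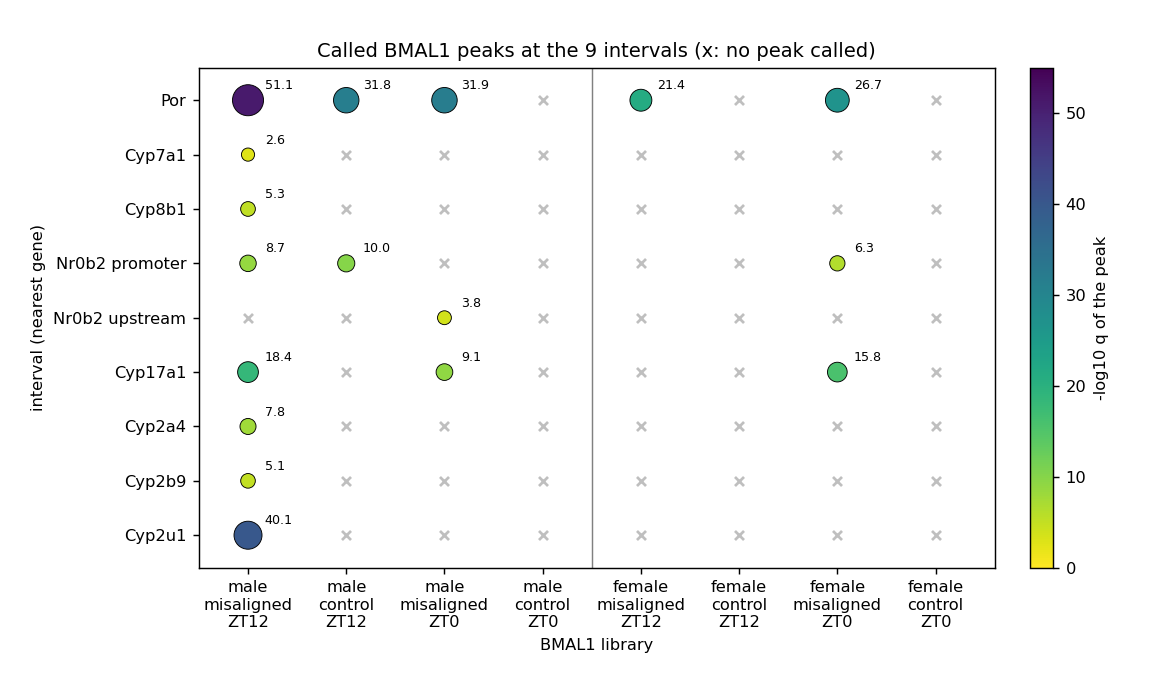
Peaks at the 9 intervals (rows) in the 8 BMAL1 libraries (columns), where point colour and size give the -log10 q of the authors' peak caller and a cross marks a library with no peak. Por was called in 5 libraries, and 5 intervals were called in male misaligned ZT12 alone.

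The 9 intervals were described by position as well. The authors' annotation placed 2 in a promoter, 3 in an intron and 4 between genes. The distance to the nearest transcription start site (TSS) was within 1 kb for 3 of 9, or 33.3%, beside 28.7% of all intervals. The median distance was 2985 bp, beside 6967 bp over all intervals. A single library accounted for 6 of the 9, or 66.7%, beside 78.5% of all intervals. The local background at the 17 peaks was 1.06 to 3.02 times the lowest of the same list.

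**Figure D2:**
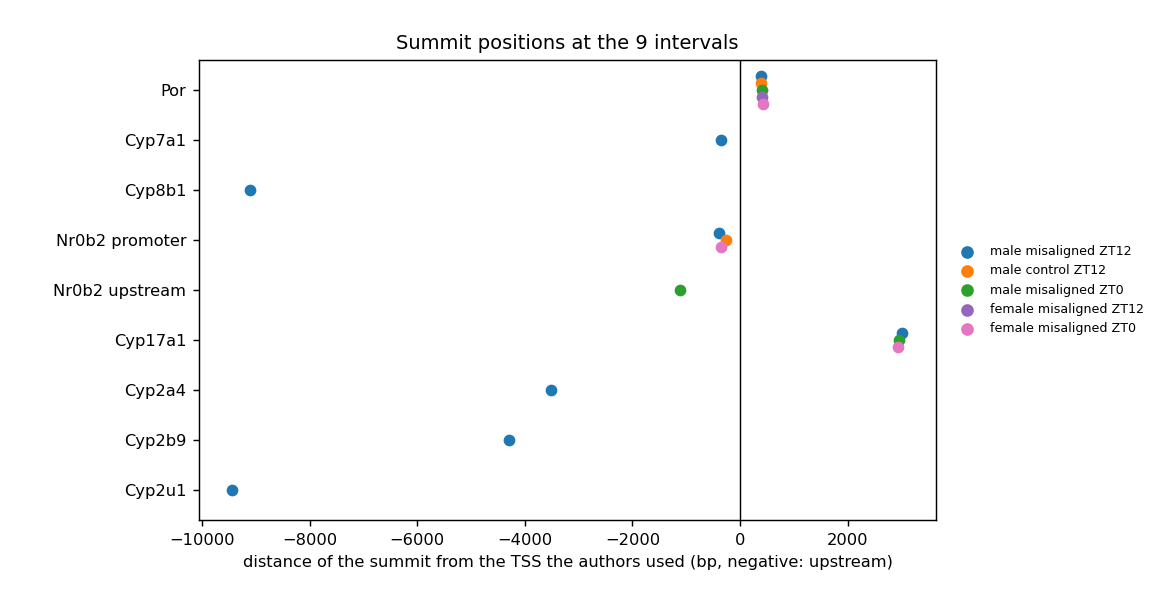
Distance in bp between each peak's summit and the TSS the authors used (negative values lie upstream), for the 9 intervals, with points coloured by library. Summits of different libraries lay within 46 bp of each other at Por, 86 bp at Cyp17a1 and 116 bp at the Nr0b2 promoter.

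Por encodes NADPH-cytochrome P450 oxidoreductase, the electron donor. It had the most calls of the 8 genes, in all 4 misaligned libraries and in 1 control library, male control ZT12. Its interval lay at chr5:135674353-135675310 (GRCm38), in intron 1 of a 6-intron transcript, 246 bp downstream of the TSS the authors used. That TSS is 4545 bp inside the 5′ end of the gene in RefSeq, which runs over chr5:135670040-135735326 on the plus strand.

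In male misaligned ZT12 the Por peak had a fold enrichment of 9.26, with 87 fragments over a local background of 8.51. In male control ZT12 it had a fold enrichment of 8.70, with 57 fragments over 5.67. The exact Poisson 95% intervals of these fragment numbers, 69.7 to 107 in the misaligned library and 43.2 to 73.9 in the control library, overlapped. The numbers are not scaled for depth, and an overlap is no test of a difference. Such intervals are meant for counting error only and not for the spread between mice, which were pooled within each group. Whether reads carried molecular identifiers is not given in the sources used here, so even counting error may not be fully covered.

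In male misaligned ZT0 the fold enrichment at Por was 6.99, with 69 fragments, and male control ZT0 had no peak there. In female misaligned ZT12 it was 5.68, with 58 fragments, and in female misaligned ZT0 it was 7.86, with 52 fragments. Neither female control library had a peak at this interval. The -log10 q reached 51.1 in male misaligned ZT12, against 31.8 in male control ZT12. The other misaligned libraries had 31.9 (male ZT0), 21.4 (female ZT12) and 26.7 (female ZT0).

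Within its own list, the Por peak ranked 164 of 5542 in male misaligned ZT12 and 56 of 290 in male control ZT12. It ranked 81 of 1864 in male misaligned ZT0, 57 of 221 in female misaligned ZT12 and 118 of 1330 in female misaligned ZT0. When each list was shortened to its 141 strongest peaks, the length of the shortest list, Por was still called in 4 libraries and none of the other 7 genes was called in any.

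**Figure D3:**
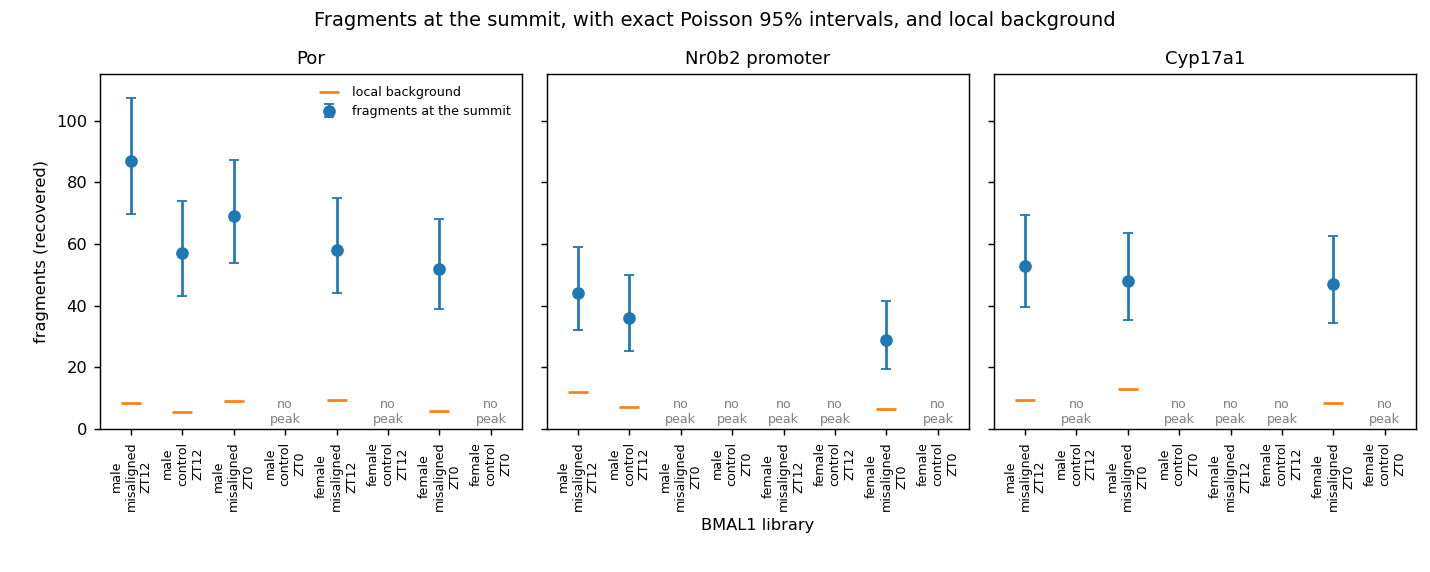
Fragments at the summit (points, with exact Poisson 95% intervals for counting error) and local background (dashes) at Por, the Nr0b2 promoter and Cyp17a1 in the 8 libraries. At Por the fragment numbers ran between 52 and 87 in the 5 libraries with a peak, over backgrounds of 5.67 to 9.39.

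The Por gene held 3 more intervals that the authors' table assigned to another gene, and these lie outside the 9. Their nearest TSS was that of Gm16061, a processed pseudogene inside Por. The first, at chr5:135688274-135689220, covered the RefSeq promoter window of Por, and the authors' own annotation column placed it in the promoter of Por. It was called in 6 libraries, 4 misaligned and 2 control.

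At this promoter interval the fold enrichment was 11.9 in male misaligned ZT12, with 104 fragments, and 3.77 in male control ZT12, with 40 fragments. It was 3.90 in female misaligned ZT12, with 63 fragments, and 3.68 in female control ZT12, with 45 fragments. Both control libraries at ZT12 therefore had a peak at this promoter interval. Male misaligned ZT0 had a fold enrichment of 4.24 and female misaligned ZT0 had 6.15, and neither control library at ZT0 had a peak. The 6 summits lay between 503 and 432 bp before the start that this RefSeq window was built on, so they fell upstream of the bases printed above. That start is internal to the gene, whose 5′ end in RefSeq is at chr5:135670040.

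The other 2 intervals lay in intron 1 of a 14-intron Por transcript. At chr5:135695094-135695793 the fold enrichment was 4.18 in male misaligned ZT12, 5.43 in male misaligned ZT0 and 3.59 in female misaligned ZT0, with no peak in the other libraries. At chr5:135707715-135708303 a single peak was called, in male misaligned ZT12, with a fold enrichment of 6.46 and 56 fragments. Counted by the RefSeq gene and 10 kb either side, Por had a peak in 6 of 8 libraries, where the nearest-gene rule gives 5.

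**Figure D4:**
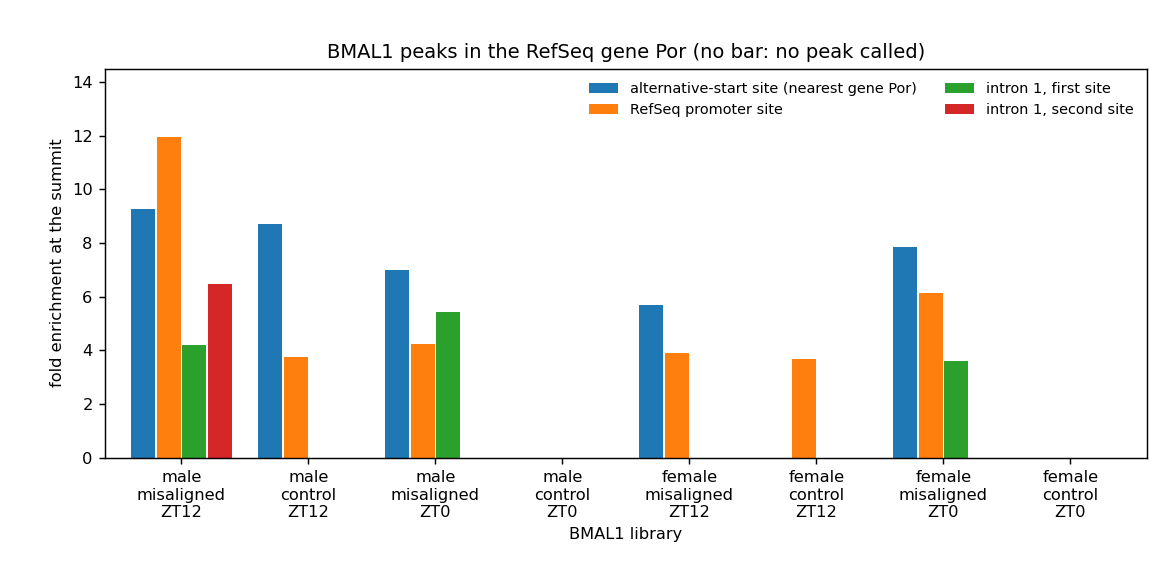
Fold enrichment at the summit (bars) in the 8 libraries for the 4 intervals inside the RefSeq gene Por: the interval near an alternative start that the authors assigned to Por, the RefSeq promoter interval and 2 intron intervals. The promoter interval was called in 6 libraries, including both control libraries at ZT12, and neither control library at ZT0 had a bar.

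Nr0b2 had peaks at 2 intervals, in 4 libraries in all. The promoter interval, chr4:133552906-133553527, lay 160 bp upstream of the TSS of a gene that runs over chr4:133553376-133556686 on the plus strand. Male misaligned ZT12 had a fold enrichment of 3.45 there, with 44 fragments over a local background of 12.0, and male control ZT12 had 4.64, with 36 fragments over 6.98. The fold was lower in the misaligned library while its fragment number was higher, beside the higher local background. The exact Poisson 95% intervals of the fragments, 32.0 to 59.1 in the misaligned library and 25.2 to 49.8 in the control library, overlapped, which is no test of a difference.

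Female misaligned ZT0 had a fold enrichment of 3.92 at the Nr0b2 promoter, with 29 fragments over 6.64. No peak was called at this interval in male misaligned ZT0 or female misaligned ZT12, nor in male control ZT0 or the female control libraries. The -log10 q was 8.67 in male misaligned ZT12, 10.03 in male control ZT12 and 6.29 in female misaligned ZT0.

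The E-box in the Nr0b2 sequence printed above sits at chr4:133553181-133553186, 195 bases before the start. It lay inside the peak of all 3 libraries, and the summits lay upstream of it, by 187 bp in male misaligned ZT12, 71 bp in male control ZT12 and 156 bp in female misaligned ZT0. The second interval, chr4:133552029-133552339, was called in male misaligned ZT0 alone, with a fold enrichment of 3.50 and 23 fragments over 5.86. It ended 842 bp short of the E-box and 1037 bp short of the gene.

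Past the 3′ end of Nr0b2, 2 further intervals had the miRNA gene Gm23158 as their nearest TSS. The interval at chr4:133557384-133557846, 698 bp beyond the gene, had a fold enrichment of 6.77 in male misaligned ZT12 and 4.83 in male misaligned ZT0. The interval at chr4:133559892-133560174 had 6.26 in male misaligned ZT12. In the same library each of these exceeded the fold enrichment on the 5′ side, which was 3.45 in male misaligned ZT12 and 3.50 in male misaligned ZT0. No control or female library had a peak at either place.

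Cyp7a1 encodes cholesterol 7-alpha-hydroxylase, which starts the classic bile acid pathway and limits its rate. It had 1 peak, in male misaligned ZT12. It lay in the promoter at chr4:6275845-6276169, 374 bp upstream of the TSS of a gene on the minus strand. Its fold enrichment was 3.27, with 17 fragments over a local background of 4.50, and its exact Poisson 95% interval was 9.90 to 27.2 fragments. With a -log10 q of 2.64 it ranked 4655 of 5542, the weakest of the 17 peaks, and it fell away at a -log10 q of at least 3.

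Cyp8b1, the sterol hydroxylase that sets the share of cholic acid, also had 1 peak, in male misaligned ZT12. It lay between genes at chr9:121925209-121925557, 9078 bp upstream of the TSS. Its fold enrichment was 3.72, with 25 fragments over 5.98, a -log10 q of 5.28 and rank 2896 of 5542. Neither bile acid gene had a call in a control or a female library.

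Cyp17a1 encodes steroid 17-alpha-hydroxylase, and was called in 3 misaligned libraries and no control library. Its interval, chr19:46668092-46668521, lay in an intron, 2985 bp downstream of the TSS the authors used. The fold enrichment was 5.16 in male misaligned ZT12 with 53 fragments, 3.48 in male misaligned ZT0 with 48 fragments and 5.17 in female misaligned ZT0 with 47 fragments. The fragment numbers were close to each other in the 3 libraries, over local backgrounds of 9.46, 13.1 and 8.28 in that order. The -log10 q was 18.4, 9.11 and 15.8 in the same order. The edge of a lncRNA gene, Gm41857, lay 75 bp from this interval in RefSeq.

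The Cyp17a1 pattern of calls was common. Over the 8 libraries, 184 intervals were called in exactly these 3, and 105 of them lay within 10 kb of the TSS of a protein-coding gene. Ordered by the root mean square difference of their rank percentiles, the nearest were Hspd1 at 6.02 percentile points, Ptp4a1, Rbm4b, Ran and Mgmt at 6.87. The same calls as Por were shared by 8 intervals, 3 of them near a protein-coding gene: Rapgef1 at 1.02 points, Hhipl1 at 21.9 and Senp8 at 42.0. The calls of the Nr0b2 promoter were shared by 7 intervals, near Flot2 at 14.0 points, Rdh9 at 18.4, Ankrd37, the clock gene Per2 and Spag4 at 24.8 among protein-coding genes. The Per2 interval in question lay 3661 bp downstream of the TSS.

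Cyp2a4 encodes a steroid 15-alpha-hydroxylase and Cyp2b9 a P450 of the drug-metabolising 2B subfamily, and both are known for higher expression in female than in male mouse liver. Both were called in male misaligned ZT12 alone. The Cyp2a4 interval, chr7:26303551-26303943, lay 3443 bp upstream of its TSS, with a fold enrichment of 4.63 and 26 fragments over 4.83. It lay 478 bp from the lncRNA Gm42375. The Cyp2b9 interval, chr7:26168939-26169344, lay 4270 bp upstream, with a fold enrichment of 3.86 and 23 fragments over 5.21. Both genes have near-identical neighbours in the same cluster, and how reads that match several of them were handled is not given in the sources used here.

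Cyp2u1 encodes a fatty acid hydroxylase. Its peak, also in male misaligned ZT12 alone, had the highest fold enrichment of the 17 peaks, 10.5, with 61 fragments over 4.88 and a -log10 q of 40.1. It ranked 233 of 5542 in that list. The interval, chr3:131312390-131312877, lay 9433 bp upstream of the TSS, in an intron of an antisense gene that the annotation gives as ENSMUSG00000097761. In RefSeq it lay 8233 bp from the edge of Cyp2u1 and 6108 bp from the edge of Sgms2, a sphingomyelin synthase gene. The authors' name goes by the nearest TSS and not by the nearest gene edge.

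The cytochrome P450 family as a whole was then counted, over the 98 protein-coding genes of RefSeq whose symbols mark them as P450s. At a distance of up to 10 kb to the TSS, 17 of them (17.3%) were called in at least 1 misaligned library and none in a control library, beside 10.9% and 1.31% of all 21896 protein-coding genes. Over all 8 libraries the share of protein-coding genes was 11.1%. The 17 include 6 of the genes chosen above on their peak calls and 11 others, so the share partly reflects that choice. Without male misaligned ZT12 the count was 4 of 98 (4.08%), beside 5.19% of all protein-coding genes, and it was made up of Cyp17a1, Cyp2a5, Cyp46a1 and Cyp4f17. Counted by the RefSeq gene and 10 kb either side, 28 of 98 (28.6%) were called in a misaligned library, beside 25.9% of all protein-coding genes. By that wider rule 2 of 98 (2.04%), Cyp27b1 and Cyp2t4, were called in a control library, beside 3.69% of all protein-coding genes. The P450 shares were near those of all genes in these 3 counts.

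By library, 15 P450 genes (15.3%) were called in male misaligned ZT12, beside 8.91% of protein-coding genes, and none in male control ZT12, beside 0.484%. In male misaligned ZT0 there were 2 (2.04%), beside 3.52%, and none in male control ZT0, beside 0.804%. In female misaligned ZT12 there were none, beside 0.457%, and none in female control ZT12, beside 0.242%. In female misaligned ZT0 there were 3 (3.06%), beside 2.94%, and none in female control ZT0, beside 0.411%. Outside male misaligned ZT12, the P450 shares were thus below or near those of all genes. The 15 genes of male misaligned ZT12 include all 6 P450 genes chosen on their peak calls, so its share partly reflects that choice. A share without the chosen genes was not computed, and no excess of P450 genes is read from this library.

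**Figure D5:**
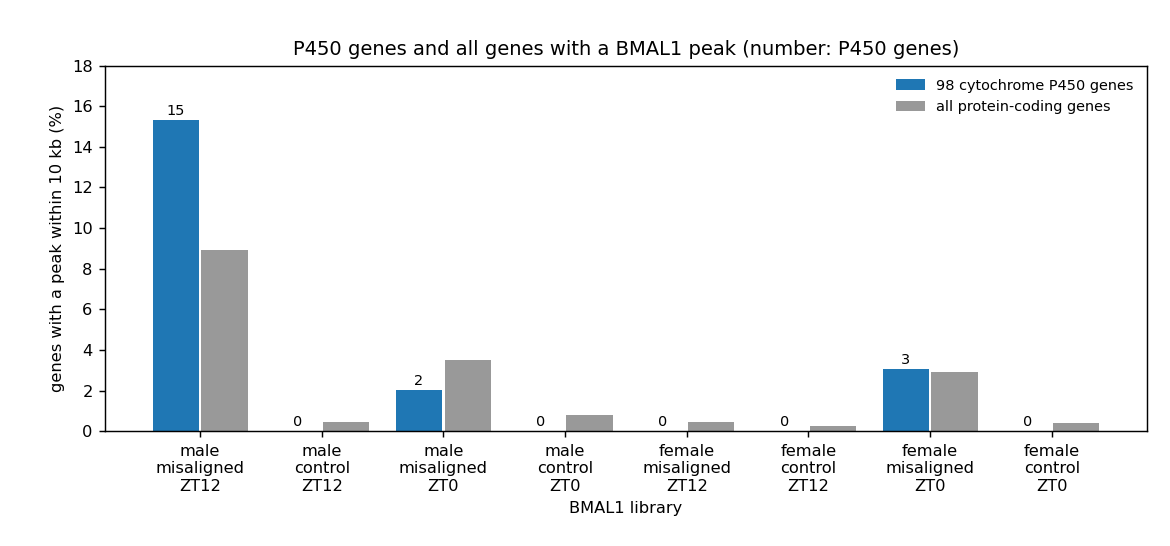
Percentage of the 98 cytochrome P450 genes (blue, with their number) and of all protein-coding genes (grey) with a peak at most 10 kb from the TSS in each of the 8 libraries. The P450 share was 15.3% beside 8.91% in male misaligned ZT12, and it was 0% in the 4 control libraries, where it was between 0.242% and 0.804% for all genes. The count in male misaligned ZT12 includes 6 genes chosen on their peak calls.

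Among the other P450 genes, Cyp2a5, a coumarin hydroxylase of the same subfamily as Cyp2a4, was the only 1 called in 2 libraries within 10 kb. Its fold enrichment was 7.42 in male misaligned ZT12 and 5.12 in female misaligned ZT0, 8106 bp upstream of the TSS. Cyp26a1, which breaks down retinoic acid, had a fold enrichment of 4.78, Cyp20a1, whose substrate is not established, 3.65, and Cyp3a13, of the drug-metabolising 3A subfamily, 3.92, each in male misaligned ZT12. The P450 interval at chr1:74713033-74713782 was called in male misaligned ZT12 and male misaligned ZT0, and it covered the RefSeq promoter of Cyp27a1, sterol 27-hydroxylase, although the table gives a distance of -21944 bp. It was picked out after its values were seen.

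RefSeq promoter windows (250 bases before to 50 after the start) were available for 5 of the 8 genes. They were searched on both strands for CACGTG, the related CACGTT or AACGTG, which are one element read on either strand, and the PAR-bZIP element TTANGTAA. The E-box CACGTG was present in 7.15% of 32851 windows, in 23.2% of the 2322 windows that a peak overlapped and in 36.7% of the 360 overlapped in 3 or more libraries. It was present in 2 of the 86 P450 windows (2.33%), and in none of the 4 P450 windows that a peak overlapped. Among the 5, Nr0b2 alone held it, once. The related element was in 4.68% of all windows and the PAR-bZIP element in 2.32%, and neither was in any of the 5.

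Genes of these pathways were counted from lists by the same 10 kb rule. The lists include the 8 genes chosen on their peak calls, and the lists too were chosen with earlier results of these data known. The counts partly reflect both choices, and no enrichment is read from them. Each count is for at least 1 misaligned library against at least 1 control library, beside the 10.9% and 1.31% given above. Of 16 bile acid synthesis enzymes, 7 had a peak in a misaligned library and none in a control library. Cyp7a1 and Cyp8b1 are among these 7, and 6 of the 7 were called in male misaligned ZT12. Amacr, a racemase of side-chain shortening, was called in both male misaligned libraries, with a fold enrichment of 2.41 at ZT12 and 3.97 at ZT0. The ZT12 peak was near the calling limit, with a -log10 q of 1.37 and rank 5519 of 5542. At ZT0 the -log10 q was 6.09. Akr1d1, the steroid 5-beta-reductase, had a fold enrichment of 5.73 and Hsd17b4, a peroxisomal enzyme, 6.17, both in male misaligned ZT12. Cyp46a1, cholesterol 24-hydroxylase, had 3.59 in female misaligned ZT0.

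Of 12 bile acid transporters, 3 had a peak in a misaligned library and none in a control library. Atp8b1, a phospholipid flippase of the canalicular membrane, was called in 3 misaligned libraries, with its highest fold enrichment of 5.93 in male misaligned ZT12. Abcc2 reached 3.22 and Abcc3 reached 5.27, both export pumps for conjugates. Of 12 genes of bile acid sensing and feedback, 2 had a peak in a misaligned library, Nr0b2 and the hepatocyte factor Foxa2 with 6.12, and 1 in a control library, Nr0b2.

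Of 15 genes of electron donation and haem supply, 5 had a peak in a misaligned library and 1, Por, in a control library. Fech, which inserts iron into haem, was called in 3 misaligned libraries at 104 bp upstream of its TSS, with a fold enrichment of 4.09 in male misaligned ZT12, 4.12 in male misaligned ZT0 and 3.83 in female misaligned ZT0. Alad, an early enzyme of haem synthesis, reached 3.03 and Hmox1, which degrades haem, reached 3.29.

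Of 10 xenobiotic receptors and PAR-bZIP regulators, 5 had a peak in a misaligned library and 4 in a control library. By this rule no library had a peak at the xenobiotic receptors Nr1i2, Nr1i3 and Ahr, nor at Arnt and Rxra. Tef and Dbp, clock-driven factors of the PAR-bZIP family known to act on drug metabolism genes in mouse liver, were called in all 8 libraries. Their highest fold enrichments, 27.4 at Tef and 29.9 at Dbp, both in male misaligned ZT12, lay above all 17 peaks at the 8 genes. Hlf, of the same family, was called in 5 libraries and Ppara, the fatty acid receptor, in 6. At Ppara, 221 bp upstream of the TSS, male misaligned ZT12 had a fold enrichment of 7.05 against 5.79 in male control ZT12. Male misaligned ZT0 had 7.93 against 6.42 in male control ZT0.

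Of 22 phase II and III xenobiotic enzymes, 5 had a peak in a misaligned library and none in a control library, led by the transferase Gstp1 in both male misaligned libraries. Gstp1 had a fold enrichment of 4.91 in male misaligned ZT12 and 5.37 in male misaligned ZT0. In male misaligned ZT12 it was 3.18 at the epoxide hydrolase Ephx1, 2.51 at the transferase Gsta4 and 2.45 at the aldehyde dehydrogenase Aldh3a2. The -log10 q was 5.96, 2.70 and 1.85 in that order, so Gsta4 and Aldh3a2 fell below the stricter limit of 3. No peak was called at these 3 genes in the other libraries. Of 15 female-biased liver P450 genes, 4 had a peak in a misaligned library, the 3 described above and Cyp2a5, and of 6 male-biased ones 1 did, Cyp2u1. All of these except Cyp2a5 are among the 8 genes chosen on their peak calls. None of either list had a peak in a control library. Of 8 hepatocyte marker genes, 2 had a peak, Pck1 in 3 misaligned libraries and 1 control library, and Serpina1a in male misaligned ZT12. None of the 4 markers each of cholangiocytes, endothelium, Kupffer and myeloid cells, stellate cells and lymphocytes had a peak.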

How the data were processed

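BMAL1 libraries of 8 groups, 1 each, were used. The submitters' processing notes name BWA 0.7.17-r1188, MACS2 2.2.7.1 and the build GRCm38. The peak caller's q threshold and the use of the IgG libraries as control are not given in the sources used here. The authors' deposited lists give per peak a score, the fold enrichment as a ratio over local background, and -log10 p and -log10 q values. The deposited consensus table merges peaks into intervals with a call per library, and it differed from the lists in 0 calls.

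The whole number of fragments at a summit and the local background were solved from fold and -log10 p, with a relative tolerance of 0.0001, for 99.1% to 100% of a list's peaks. On simulated data, 1000 of 1000 peaks were recovered, and the 10 kb rule found 200 of 200 planted genes and 0 of 1800 others. Exact Poisson intervals are at 95%. RefSeq (GRCm38.p6) gave 21896 protein-coding symbols and matched 22 of the 22 P450 symbols with an interval. Python 3.11.15, pandas 2.3.3 and scipy 1.17.1 were used.

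Groups were taken from the labels. The members and gene lists were chosen with earlier results of these data known. Genes named were the 8 members and, for each list and for the other P450 genes, up to 4 by number of libraries and then highest -log10 q. For an interval called in 3 or more libraries, up to 5 protein-coding genes with the same calls were named by rank percentile. Exceptions are stated beside their values. The alternatives tried were a -log10 q of at least 3, a distance of 1 kb, another distance limit, at least 50% of a peak inside the interval, lists of equal length, male misaligned ZT12 left out, the RefSeq gene with 10 kb either side, and no peaks with a background of 5 times the lowest or more. The share of all protein-coding genes was recounted under each. Peak sequences were not read, as no genome sequence was used here.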

Additional observations from a re-analysis of the deposited data

Results flagged for a closer look

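At the Nr0b2 promoter, the misaligned libraries of the sexes were called at opposite times. In males a peak was called in misaligned ZT12, with a -log10 q of 8.67, and not in misaligned ZT0. Male misaligned ZT0 did have a peak at the other Nr0b2 interval, 1192 bp upstream of the TSS, with a -log10 q of 3.80. Counted by gene, Nr0b2 was thus called in both male misaligned libraries. In females none was called in misaligned ZT12, and misaligned ZT0 had a peak with a -log10 q of 6.29. The lists differ in length in the same direction, with 5542 peaks in male misaligned ZT12 against 1864 in male misaligned ZT0, and 221 in female misaligned ZT12 against 1330 in female misaligned ZT0. The difference between the sexes was not tested, as each group had 1 library, and the part of list length in it was not tested.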

How the results depend on the processing

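The count of genes called in a misaligned library, 8 of 8, was 3 within 1 kb of the TSS, 1 with lists of equal length and 3 without male misaligned ZT12. For all protein-coding genes the share went from 10.9% within 10 kb to 6.84%, 0.571% and 5.19% in that order. The count in a control library, 2, was 1 with lists of equal length, beside 1.31% and 0.617% of all protein-coding genes. The 8 genes were chosen on their calls, so these counts are not read against the shares. For the P450 family, the count in a misaligned library, 17, was 8 within 1 kb (8.16%, beside 6.84% of all protein-coding genes), 0 with lists of equal length (beside 0.571%), 4 without male misaligned ZT12 and 28 by the RefSeq gene with 10 kb either side. Its count in a control library, 0, was 2 by the RefSeq gene. Under the remaining alternatives these 4 counts stayed within 1.5 times. The number of libraries with a peak at each gene did so in 46 of 64 recounts and moved further in 18, and Por, called in 4 to 6 libraries, was not among those that moved further. Leaving out peaks of high background, or asking for at least 50% of the peak inside the interval, changed none of the 4 counts. Misaligned and control libraries of the same sex and time were set side by side, and no test over these 4 pairs was made. Calls depend on depth, which is unknown, so the absence of a call in a short list is not the absence of binding.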

Other observations

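A stretch of 891 kb on chromosome 7, chr7:26168939-27059736, carried 9 of the 27 intervals whose nearest gene was a P450, at any distance. Its ends are those of the outermost such intervals on the chromosome, so it need not hold the whole Cyp2a and Cyp2b gene cluster. The counts below hold for these ends only. Cyp2b9 and Cyp2a4 are among the 6 genes the 9 intervals were assigned to, with Cyp2b19, Cyp2a5, Cyp2a22 and Cyp2a12. No interval with any other nearest gene lay in the stretch. Male misaligned ZT12 had a peak at 8 of the 9, the 9 intervals held 10 calls in all, and none of these was in a control library. Beside this, 78.7% of all 7043 intervals were called in male misaligned ZT12 and between 1.96% and 5.21% in each control library, so these counts are near those shares. The fold enrichment of the strongest peak ran between 2.74 and 7.42 over the 9. The stretch was picked out after its values were seen. Some of its genes are near-identical copies, and how the authors assigned reads that match several copies was not tested.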
